A study of Drosophila melanogaster with 4 samples.

Results

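The genes v(2)k05816, ade5 and CG42335 are 3 of the 4841 gene names listed in tables of RNA crosslinked to Sister of Sex-lethal (Ssx), and they were grouped as metabolic enzyme genes with strong signal. All table rows that carry one of these names were taken, which gave 6 intervals out of 17175. The genes were chosen by their deposited read signal and fold change in the comparison described here, so these values are a description with no test and are not evidence about the genes as a set. The label holds in part: 4 of the 6 intervals were called in the authors' test and the other 2 were not. Those 2 held 47 reads in an intron and 9 in coding sequence, beside medians of 6 and 3 reads per interval there. The sources used here give no function for CG42335.

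Fatty acid synthase builds long-chain fatty acids from acetyl and malonyl units and feeds membrane and storage lipid synthesis. v(2)k05816 is an older name of FASN2, a fatty acid synthase gene. ade5 is an older name of Paics, whose product carries out adjacent steps of the purine ring synthesis that supplies nucleotides for RNA and DNA. Ssx is a paralog of Sex-lethal (Sxl), the RNA-binding switch protein of fly sex determination, which binds uridine-rich stretches in introns and untranslated regions (UTRs) and controls splicing and translation there.

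The experiment was individual-nucleotide resolution crosslinking and immunoprecipitation (iCLIP) in SL2, an established male Drosophila melanogaster cell line. RNA was recovered with a rabbit polyclonal Ssx antibody in 2 libraries (SSX-IP1 and SSX-IP2) and with rabbit IgG as control in 2 libraries (Ctrl-IP1 and Ctrl-IP2), with no other treatment or genotype in the labels. Whether the libraries of each antibody are separate cultures is not stated in the labels, so the deposited p-values may reflect technical spread alone. The authors deposited 1 result table each for 5' UTR, coding sequence (CDS), intron and 3' UTR intervals, with no column for a single library. A positive log2 fold change was read as higher in the Ssx immunoprecipitate (IP). That direction is likely, since the submitters present the tables as transcripts bound by Ssx, but no table states it. Errors after ± are the deposited standard errors (SE).

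Each deposited mean could be resolved into whole reads in 4 libraries, which carry no names and are called a, b, c and d here. They were matched between tables through intervals that held the same reads, and none was assigned to a group, since their groups could be read only from the values. In the 5' UTR, CDS and 3' UTR tables, every interval with all its reads in library a or b has a log2 fold change above 0 in the authors' deposited table, and every one with all its reads in c or d has one below 0. In introns this held for b, c and d, while 358 of the 822 intervals with reads in library a alone were above 0 and 464 below. Such an intron interval with 2 reads, as in CG33110, is listed at -0.00 ± 1.49 in the authors' deposited table. Its sign below 0 is thus 0 to 2 decimals. Over non-overlapping intervals, libraries a to d held 59860, 47613, 13379 and 5567 reads in introns and 16978, 17025, 4628 and 1752 reads in 3' UTRs. The CDS table held 2983, 1314, 2201 and 651 reads, and there library c had 30.8% of the reads against 10.6% in introns and 11.5% in 3' UTRs. Library d was the shallowest in each table, so its values are the least precise. The tables were scaled separately by the authors, so fold changes are set side by side between transcript parts without a test, while reads per kb are compared as raw reads of the same libraries. The intervals for shares of reads given below cover counting error only. How duplicate reads were handled is not given in the sources used here, so several reads may be copies of 1 molecule. Of 15 marker genes of haemocyte-like cells such as SL2, 12 had an intron interval and 10 a 3' UTR interval, but 1 was tested in each part and 0 were called, beside 24 of 507 tested intron genes and 65 of 178 tested 3' UTR genes called as higher. These are recovered RNAs and not expression levels, so they do not check the cell type.

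The 6 intervals divided the genes by transcript part. v(2)k05816 and CG42335 were listed in introns only, with 2 intervals and 1 interval, and ade5 was listed in the 3' UTR, with 2 intervals, and in the CDS, with 1. None of the 3 genes had a listed 5' UTR interval, and each listed interval of any gene held at least 2 reads. At an adjusted p under 0.05, 2 of the 3 intron intervals were called as higher in the Ssx IP, against 3.62% of all tested intron intervals, and 0 as lower, against 5.57%. Both 3' UTR intervals of ade5 were called as higher, against 33.2% of tested 3' UTR intervals, and 0 as lower, against 0.692%. The 1 CDS interval was not called, and 0% of CDS intervals were. All 1921 CDS intervals were tested, down to a mean of 0.299 normalized reads. Tested intervals had means of at least 5.65 in introns and 7.36 in 3' UTRs, so the shares are not alike between transcript parts. These shares are background to genes that were chosen for this contrast.

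**Figure D1:**
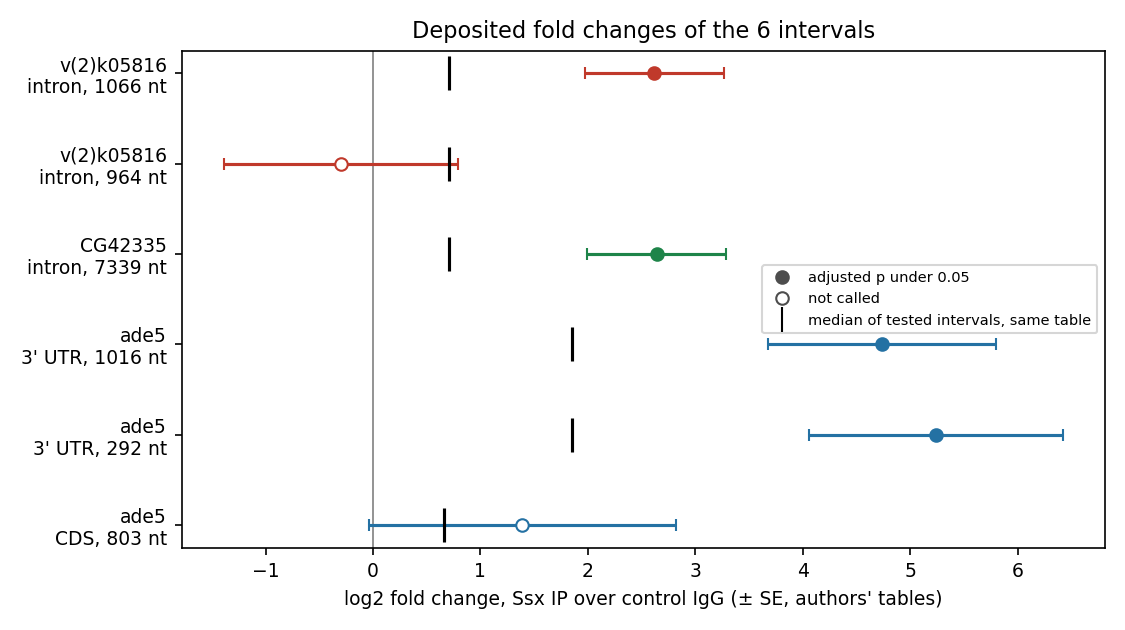
Deposited log2 fold changes with their standard errors for the 6 intervals, where filled points passed an adjusted p of 0.05 and vertical ticks mark the median of tested intervals in the same table. The called intervals of v(2)k05816 and CG42335 lie at 2.62 and 2.64 and the ade5 3' UTR intervals at 4.74 and 5.24, while the 964-nt v(2)k05816 intron lies at -0.30.

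The first listed intron of v(2)k05816, chr2L:3045884-3046949 on the plus strand in dm6, carried the most reads of any interval of the 3 genes. It is 1066 nt long and begins 1937 nt from the start of FASN2, a gene that spans 12197 nt in the RefSeq annotation. Libraries a to d held 1071, 1388, 68 and 19 of its 2546 reads. After the authors' scaling these are 411, 735, 123 and 47.3 normalized reads. Libraries a and b were thus above c and d with no overlap before and after scaling. The interval has a mean of 329 normalized reads in the authors' deposited table, where its log2 fold change is 2.62 ± 0.65 with a DESeq2 adjusted p of 0.00402. The median log2 fold change of tested introns was 0.71, and 65.2% of them lay above 0.

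At 2388 reads per kb, this interval had the highest read density of the 8699 distinct intron intervals whose reads could be resolved. The median intron interval had 2.18 reads per kb. By the mean of normalized reads it ranked 8 of 8704. Its density exceeded that of the CG42335 intron by 15.7-fold.

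The second listed intron of v(2)k05816, chr2L:3048428-3049391, lies 1478 nt further along the same gene and is of similar length, 964 nt. It held 22, 15, 6 and 4 reads in libraries a to d, 47 in all. Scaled, these are 8.45, 7.94, 10.9 and 9.95 normalized reads, so the 4 libraries lay close together and libraries c and d were the higher ones. Its log2 fold change is -0.30 ± 1.09 in the authors' deposited table, with a DESeq2 adjusted p of 0.893. The 2 introns therefore differed 49-fold in read density within 1 gene. Of their 2593 reads together, 1.81% lay in the second intron (exact 95% interval 1.33 to 2.40).

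Each of these introns holds an annotated small nuclear RNA (snRNA) gene. snRNA:LU, 116 nt long, lies at chr2L:3046765-3046880, and its end is 69 nt before the end of the first intron. snRNA:U5:23D, 131 nt long, lies at chr2L:3048701-3048831 inside the second intron. U5 is a core RNA of the spliceosome. The tables give 1 value per interval, so reads of the snRNA gene and reads of the FASN2 intron around it cannot be told apart, and the reference table used here gives no strand for the snRNA genes.

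Across the intron table, 11 intervals of 9 genes hold a whole snRNA gene, and the first v(2)k05816 intron is the 1 interval among them that was called. The other 9 intervals outside v(2)k05816, in 8 genes, ranged from 0.572 to 315 reads per kb. Of these, 5 were tested and 0 were called. Log2 fold changes of those 5 ran from -1.29 to 0.47 per the authors' deposited table. The highest density among them was that of the Esyt2 interval, which holds snRNA:U6:96Aa, at 0.47 ± 1.05 in the authors' deposited table. None of these other intervals holds snRNA:LU, so they bear on snRNA genes inside introns in general and not on that one.

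Small RNA genes also lay in most of the resolved introns nearest to v(2)k05816 in density. The 5 unresolved introns, among them those with the highest means, hold no snRNA or snoRNA gene. They were left out of this ranking, and the 10 densest would likely differ with them. The unresolved Eip63E interval of 7010 nt has a mean of 873.4 normalized reads in the authors' deposited table. An sls interval of similar length, 7213 nt, has a mean of 287 there and had 276 reads per kb. The lowest density among the 10 was 333, so the count below holds for resolved introns only. Of the 10 densest resolved intron intervals, 9 hold a small RNA gene, beside 365 of all 8704 distinct intron intervals. Of these 9, 8 hold a small nucleolar RNA (snoRNA) gene, beside 176 of all. They include introns of the ribosomal protein gene RpL28 and of the snoRNA host genes Uhg3 and Uhg4. The 171-nt RpL28 interval lies inside the 384-nt one. Of these 10 intervals, 3 were called as higher in the Ssx IP, those of v(2)k05816, RpL28 and CG44325. The called RpL28 interval had 863 reads per kb and stood at 3.34 ± 1.12 (log2 fold change, the authors' deposited table). Over all intron intervals with a snoRNA gene, 51 were tested, in 27 genes, and 4 were called as higher. These 4 all belong to RpL17 and RpL28, so several are intervals of 1 gene and not separate cases. Among the 884 tested intervals with no small RNA gene, in 447 genes, 31 were called as higher and 51 as lower. Both counts are of intervals, so they do not compare shares of genes.

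**Figure D2:**
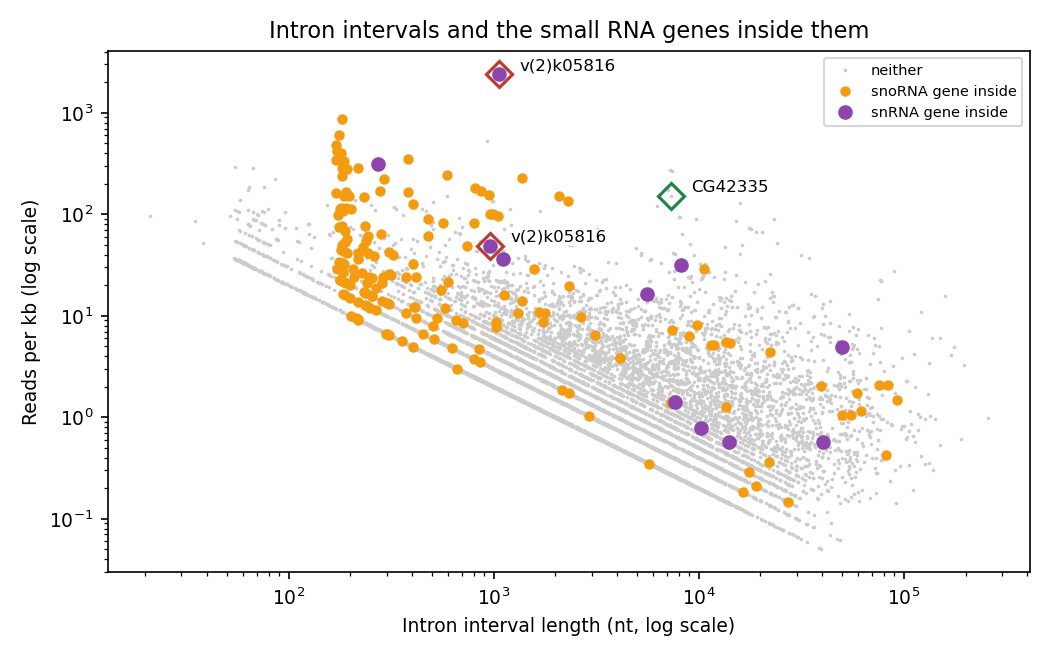
Read density in reads per kb against interval length for the distinct intron intervals with resolved reads, both on log scales, coloured by the small RNA gene inside. The 1066-nt v(2)k05816 intron stands at the top with 2388 reads per kb, its 964-nt neighbour is at 48.8 and the CG42335 intron, which holds no other annotated gene, is at 152.

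CG42335 had 1 listed interval, chr3R:21761178-21768516 on the plus strand, an intron of 7339 nt that covers 69.6% of the gene. No other gene of the RefSeq table and no other interval of the 4 tables overlaps it. It held 630, 449, 25 and 10 reads in libraries a to d, which the authors' scaling turns into 242, 238, 45.4 and 24.9 normalized reads. As in the first v(2)k05816 intron, libraries a and b were above c and d. In the authors' deposited table it has a mean of 138 normalized reads, and its log2 fold change is 2.64 ± 0.65 with a DESeq2 adjusted p of 0.00345. With 152 reads per kb it ranked 39 by density among the resolved introns. The interval is given as 1 value, so where in the 7339 nt the reads lie is not known from the tables.

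The fold changes of CG42335 and v(2)k05816 were nearly equal, 2.64 and 2.62 in the authors' deposited table. By the deposited test statistic each was the closest to the other of the 2945 other intron genes. Both genes were chosen for strong signal in this contrast, so their likeness follows in part from that choice. Their reads were spread differently over libraries a and b. CG42335 had 56.6% of its reads in library a and 40.3% in b, while v(2)k05816 had 42.1% in a and 54.5% in b, beside 47.4% and 37.7% for all introns. The next closest genes in the statistic were mgl and kirre for v(2)k05816 and hbs and CG44325 for CG42335. Per the authors' deposited table, the log2 fold change was 3.60 ± 1.0 for mgl, 2.22 ± 0.62 for kirre, 2.81 ± 0.63 for hbs and 4.14 ± 0.93 for CG44325.

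The introns with reads closest to those of CG42335 lay on other chromosomes, a comparison that was added after its values were seen. Likeness was measured as the distance between square roots of the reads in the 4 libraries. The closest was the intron of hbs (chr2R:15011831-15035980), a cell adhesion gene, with 690, 533, 23 and 12 reads. The ratios to CG42335 were 1.1, 1.19, 0.92 and 1.2 in libraries a to d. The next was the intron of kirre (chrX:2741245-2862763), a related adhesion gene, with 729, 540, 38 and 18 reads and ratios of 1.16, 1.2, 1.52 and 1.8. These introns are 24150 and 121519 nt long, and the densities were 152 reads per kb in CG42335, 52.1 in hbs and 10.9 in kirre. The third was the intron of ap (chr2R:5717764-5727453), a gene for a transcription factor of wing development, with 427, 403, 30 and 10 reads and ratios of 0.678, 0.898, 1.2 and 1.0. The fourth, an intron of CR44999 (chrX:3376234-3451009), had 523, 447, 85 and 28 reads, 3.4 and 2.8 times those of CG42335 in libraries c and d, and was not called (0.92 ± 0.64 in the authors' deposited table). Likeness was thus close in all 4 libraries for hbs and looser for kirre, ap and CR44999. These introns were picked for reads close to those of CG42335, so likeness as such is fixed by that choice.

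**Figure D3:**
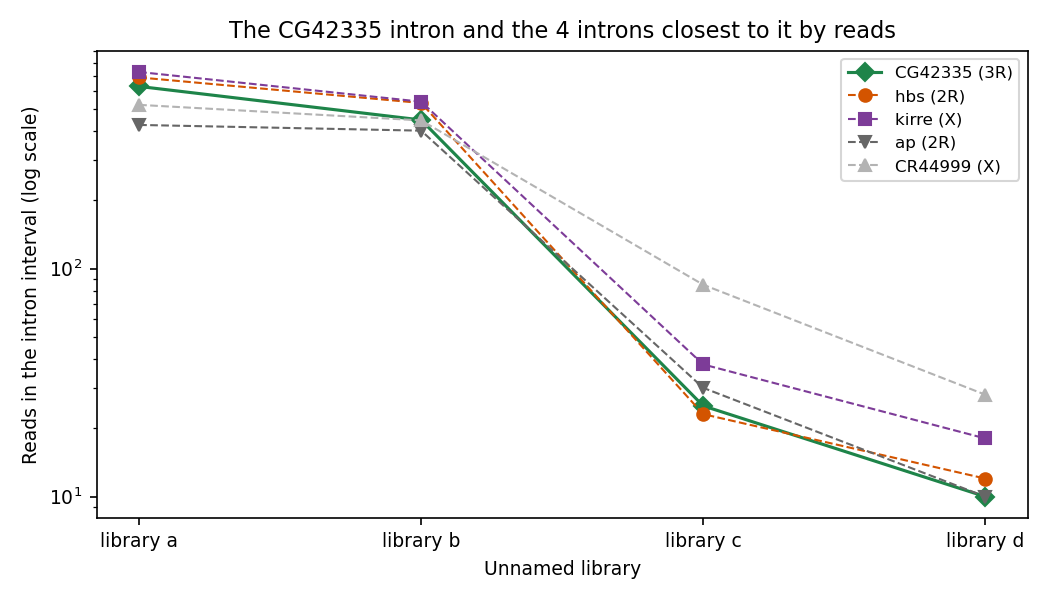
Reads in the 4 unnamed libraries, on a log scale, for the CG42335 intron and for the 4 intron intervals closest to it by reads. CG42335, hbs and kirre lie between 630 and 729 reads in library a and between 10 and 18 in library d, and CR44999 is the highest in libraries c and d, with 85 and 28.

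Sets of introns with close values on different chromosome arms also stood at the top of the intron table. The highest means, 858.4 to 873.4 normalized reads in the authors' deposited table, belonged to introns of mbl, CG34347, Tg and Eip63E on 4 arms. For v(2)k05816 the closest intron by reads was that of Ir40a, with 890, 1026, 118 and 43 reads, followed by those of rut, CadN2 and sls, which resemble each other. Against these, v(2)k05816 had more reads in libraries a and b and fewer in c and d. For these, the authors' deposited table lists log2 values of 1.40 ± 0.62, 1.45 ± 0.63, 1.35 ± 0.65 and 1.39 ± 0.63 in the order Ir40a, rut, CadN2 and sls, none of them called. How reads that match several places in the genome were counted is not given in the sources used here, and whether the intervals named in this and the preceding paragraph hold the same reads was not tested.

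In ade5 the signal lay at the 3' end of the transcript. The gene is on the X chromosome, on the minus strand, and spans 3582 nt. The longer 3' UTR interval, chrX:12757036-12758051, is 1016 nt long and held 115, 114, 2 and 0 reads in libraries a to d. Almost all of its 231 reads were in libraries a and b, and a count of 0 in library d has no order below the 2 reads of library c. Its mean is 31.6 normalized reads in the authors' deposited table, and its log2 fold change is 4.74 ± 1.06 with a DESeq2 adjusted p of 0.000345. The median log2 fold change of tested 3' UTR intervals was 1.85, and 82.0% of them were above 0.

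The shorter 3' UTR interval, chrX:12757760-12758051, is the 292 nt of the longer one that follow the coding sequence. It held 103, 108, 1 and 0 reads, and its log2 fold change is 5.24 ± 1.18 in the authors' deposited table, with a DESeq2 adjusted p of 0.000426. Because it lies inside the longer interval, the 2 rows are 1 observation. It held 91.8% of the reads of the longer interval (212 of 231, exact 95% interval 87.5 to 95.0) in 28.7% of its length. The share was 89.6% in library a and 94.7% in library b. The remaining 724 nt, chrX:12757036-12757759, held 12, 6, 1 and 0 reads. The density was 726 reads per kb next to the coding sequence and 26.2 in the rest, a ratio of 27.7. Among 4298 distinct 3' UTR intervals the shorter one ranked 8 by density and the longer one 54. The tables do not say which of the 3' UTR forms is used in SL2 cells, so fewer transcripts with the distal stretch and less crosslinking there cannot be told apart.

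The coding interval of ade5, chrX:12758052-12758854, directly adjoins the 3' UTR and is 803 nt long. It held 9 reads, all in library a. Its mean is 2.68 normalized reads in the authors' deposited table, and its log2 fold change is 1.39 ± 1.43 with a DESeq2 adjusted p of 0.855, beside a median of 0.66 for CDS intervals. With 0 reads in the other libraries, this fitted value is no bound on the true ratio. Its density of 11.2 reads per kb was 20.3-fold below that of the longer 3' UTR interval and 64.8-fold below that of the shorter one. This coding interval thus gave 3.75% of the 240 reads of both intervals (exact 95% interval 1.73 to 7.0) from 44.1% of their length. It is the 1 coding interval of ade5 listed and covers 22.4% of the gene span. Coding sequence left unlisted is therefore not in the share. With 9 reads from 1 library, a difference between the groups in this interval was not detectable at this depth.

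**Figure D4:**
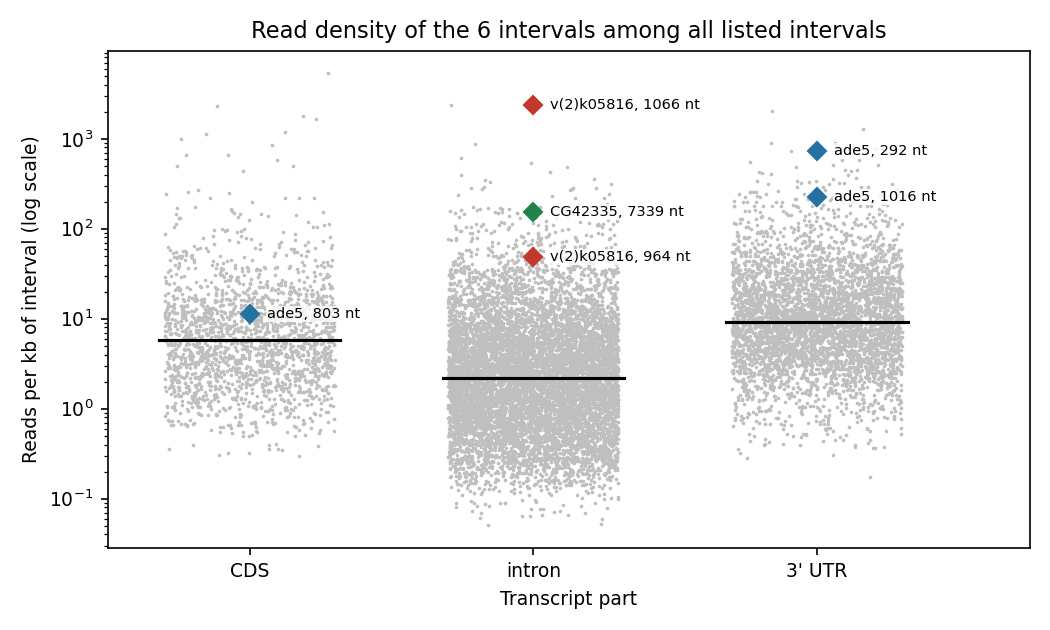
Reads per kb on a log scale for all listed CDS, intron and 3' UTR intervals with resolved reads (grey points, with the median of each part as a black line) and for the 6 intervals named (diamonds). The ade5 interval next to the stop, at 726, is 64.8 times as dense as the adjoining coding interval, at 11.2, and the first v(2)k05816 intron, at 2388, exceeds every other resolved intron.

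Genes closest to ade5 in the deposited test statistic over CDS and 3' UTR, among 862 genes listed in both, were Hsc70-3, which encodes the chaperone BiP, l(1)G0320 and SkpA, which encodes a subunit of SCF ubiquitin ligases. In 3' UTRs the authors' deposited table lists them at log2 values of 3.40 ± 0.72, 3.88 ± 0.83 and 3.81 ± 0.95, against 4.74 ± 1.06 for ade5. In CDS the authors' deposited table has 1.43 ± 1.52, 1.79 ± 1.49 and 1.12 ± 1.44 for the same genes, and none was called. These genes were picked for values close to those of ade5 in both parts, so their likeness to it is fixed by that choice. With each table scaled by itself, the difference between coding and untranslated sequence was not tested.

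**Figure D5:**
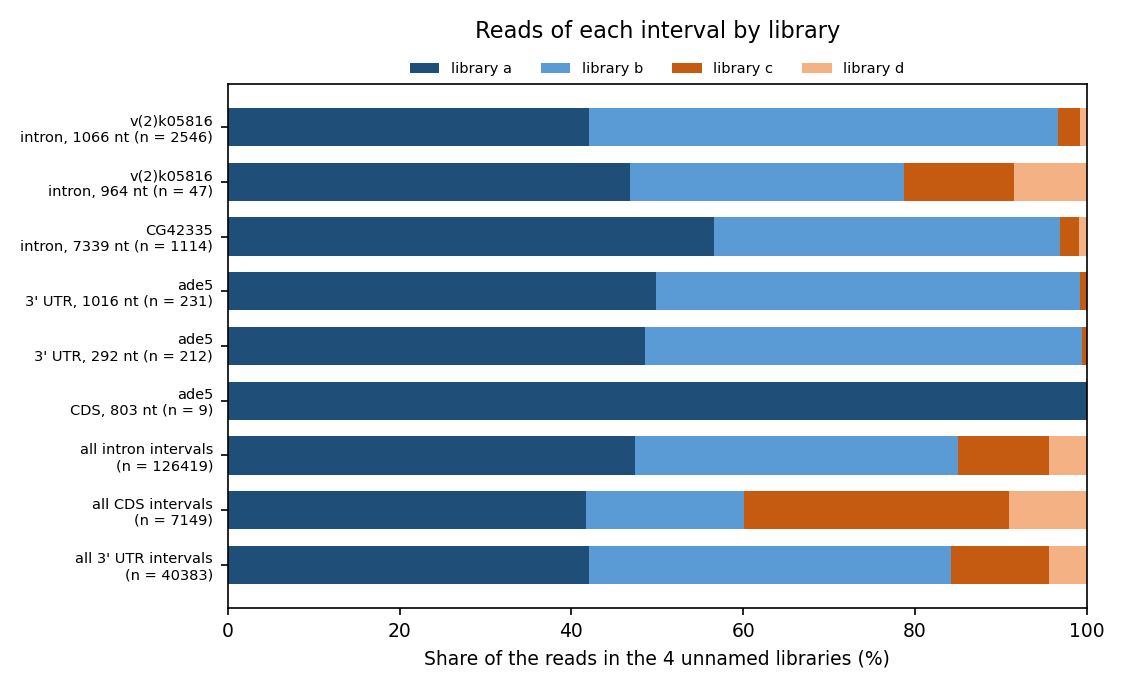
Share of reads, in percent, that fell in each of the 4 unnamed libraries for the 6 intervals and for all intervals of the same tables (n, reads). Libraries c and d hold 10.6% and 4.4% of all intron reads and 11.5% and 4.34% of all 3' UTR reads, and less in each of the 4 called intervals, whereas in the 964-nt v(2)k05816 intron they hold 12.8% and 8.51%.

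The fatty acid synthase paralogs had far fewer reads than the first v(2)k05816 intron, where reads of snRNA:LU and of FASN2 cannot be told apart. The second v(2)k05816 intron held 47 reads, and the gene had no listed UTR or CDS interval. The contrast is thus with that first intron and not with FASN2 RNA as a whole. CG3523, now FASN1, begins next to FASN2 on the same arm. It held 5 reads in its 5' UTR, 6 in its intron and 3 in its 3' UTR, with log2 values in the authors' deposited tables of 0.55 ± 1.97, 0.58 ± 1.53 and -0.98 ± 1.75. CG17374, now FASN3, had an intron interval with 2 reads at -0.60 ± 1.51 in the authors' deposited table. None of these was listed with an adjusted p.

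Other genes of lipid synthesis were rarely covered well enough to be tested. Of a list of 45 genes of fatty acid synthesis and lipid metabolism without v(2)k05816, 25 gene names were listed in introns, 15 in 3' UTRs, 11 in CDS and 8 in 5' UTRs, with a median of 3 reads in CDS and 5' UTRs and 5 in the others. In introns, 1 was tested and 0 were called, beside 24 genes called as higher and 35 as lower among all 507 tested intron genes. This was fu12, at 0.57 ± 1.21 in the authors' deposited table. In 3' UTRs, 1 was tested and 0 were called, beside 65 called as higher among 178 genes. This was Desat1, a fatty acid desaturase, at 0.40 ± 1.22 in the authors' deposited table. The median log2 fold change over listed genes of the list was 0.28 in introns and 0.34 in 3' UTRs, where all listed genes had 0.13 and 0.23. Each gene was taken by its interval with the smallest p. The 0.28 is the value of HLH106, with 3 reads, and 0.34 that of intervals with 2 reads, such as whd. Both medians thus lie near the floor. In CDS the 11 genes were all tested and 0 were called, with a median of 0.21 beside 0.66 for all genes.

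Of a list of 26 purine and folate genes without ade5, 9 were listed in 3' UTRs and 0 were tested, with a median of 4 reads. Their median log2 fold change was 0.29, beside 0.23 for all listed 3' UTR genes. It is the value of ade3, with 2 reads, and so lies near the floor. In introns 6 were listed and 0 tested, with a median of -0.31 beside 0.13 for all genes. In CDS 5 were listed and tested and 0 were called, with a median of -0.56 beside 0.66. These 5 had a median of 2 reads, so their values lie near the floor. Among the lowest were 1 intron interval of CG6767, at -2.50 ± 1.59, and the 3' UTR of Aprt, a purine salvage gene, at -2.33 ± 1.78 in the authors' deposited tables. They held 6 and 3 reads, and both were without an adjusted p. The CG6767 interval was the one with the smallest p, and the other listed intron intervals of that gene lay from 0.01 to 1.63. AMPdeam, an AMP deaminase gene on the X, was the 1 gene of the list tested in 5' UTRs, where 10.7% of tested intervals were called as higher. It was not called: its 5' UTR stood at 3.26 ± 1.85 in the authors' deposited table (log2, DESeq2 adjusted p = 0.132), the same to 2 decimals as the median of tested 5' UTR intervals. The AMPdeam intervals with the smallest p stood at 2.26 ± 1.75 in the 3' UTR and 2.72 ± 1.55 in introns in the authors' deposited tables. Both were without an adjusted p. Of ade5's neighbours in the purine pathway, ade3 had 2 reads in its 3' UTR and CG11089, now Atic, had 4.

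CG42335 was placed in an aminopeptidase list, though the sources used here give no function for it. Of the 31 genes of that list without CG42335, 4 were listed in introns and 2 in 3' UTRs. Of these, 1 was tested in each part, and 4 genes were tested in CDS. None of these tests gave a call, beside 24 of 507 intron genes, 65 of 178 3' UTR genes and 0 of 1432 CDS genes called as higher. Its tested members outside CDS were Psa in introns (0.12 ± 0.67 in the authors' deposited table) and CG4467 in 3' UTRs. CG4467 lay below 0, at -2.66 ± 1.13 in the authors' deposited table, just above the threshold (DESeq2 adjusted p = 0.0502).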

How the data were processed

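The submitters' processing notes list DESeq, DESeq2 1.14.1, cutadapt 1.6 and Bowtie 0.12.7 without saying what each did, and dm6 and BDGP6 as builds. The statistics the authors deposited are credited to the authors' use of DESeq2, from the submitters' processing notes and the column names in the file headers. How reads were counted and duplicates, strand and annotation handled is not given in the sources used here. Per the file headers, the authors deposited for each interval a mean signal (normalized reads over the 4 libraries), a log2 fold change with its standard error, a test score, a p-value and an adjusted p-value. These statistics were used as they stand, and no differential test was run. In every row the score equals the log2 fold change over its error.

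From the steps between the deposited means, whole reads in 4 unnamed libraries were solved within a relative tolerance of 1e-14, for 99.9% of intron intervals (5 were not resolved) and 100% of the others; the method was tested on simulated data. Libraries were matched between tables by 9 to 14 intervals that held the same reads, and all of these agreed on 1 order. Shares have exact Clopper-Pearson intervals at 95%. RefSeq (Release 6) named 4787 of 4841 genes. Python 3.11.15, pandas 2.3.3 and scipy 1.17.1 were used.

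The members and gene lists were chosen with earlier results of these data known. Genes named in the text are the members, genes overlapping them, the 3 genes closest in the test statistic, tested list members (at most 8 per list and table), and further genes chosen after their values were seen. Alternatives changed the p-value adjustment, the threshold, the minimum mean and the counting of overlapping intervals. The planned search for runs of T was not run, since no genome sequence was used here.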

Additional observations from a re-analysis of the deposited data

How the results depend on the processing

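The 4 called intervals had deposited adjusted p-values under 0.01, and the leading intron interval of v(2)k05816 and of CG42335 and the longer ade5 3' UTR interval passed 0.05 under each other adjustment tried. With Benjamini-Hochberg adjustment of the DESeq2 p-values over all listed intervals of the 4 tables, the adjusted p was 0.0345 for CG42335, 0.0376 for v(2)k05816 and 0.00865 for the longer ade5 3' UTR interval. Counting overlapping intervals once left 1 called 3' UTR interval. With the fold change turned, an alternative chosen after seeing the data, 0 member intervals would be higher in introns and 0 in 3' UTRs, and the same intervals would be lower. Of 68 alternative values, 61 kept their call or stayed within 1.5 times. Many of these could not move, such as counts of 0 at the stricter threshold of 0.01 and adjusted p-values that a threshold leaves unchanged. The count is therefore no measure of how stable the results are. With a mean of 10 or more, the background share called was 56.2% (higher, 5' UTRs), 8.82% (lower, introns) and 1.08% (lower, 3' UTRs, 1.12% with 1 interval per gene). No paired analysis was possible because no column holds a single library and nothing gives the replicate numbers of the resolved ones. Leaving out a library, another normalization and a count test were not run, since groups would have had to be taken from the values, and the search for runs of T was not run for want of sequence. Depth limits the CDS interval (9 reads) and the second v(2)k05816 intron (47 reads).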
